A study of Bos taurus with 47 samples.

Results

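In bovine fibroblasts, 38 of the 20526 genes measured were abundant while being low in mature oocytes, in embryos made by in vitro fertilization (IVF) and in cells grown from IVF blastocysts. They were chosen by their measured levels. The rule took a median of at least 200 normalized counts over the fibroblast libraries and of at most 20 in each of the 6 other groups it used. Those groups were oocytes, IVF 2-cell embryos, 8-cell embryos, morulae and blastocysts, and IVF blastocyst-derived cells. Of the 8 identifiers that the rule leaves out by name, 0 met the limits together. Libraries of embryos made by somatic cell nuclear transfer (scNT) took no part in the choice. The levels of the 38 genes in scNT embryos, which start from such a fibroblast, are therefore the measurement that the choice did not fix.

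Fibroblasts are connective tissue cells that make and remodel extracellular matrix, and they are a common source of donor nuclei for cloning. In scNT a whole differentiated cell is fused with an oocyte whose own chromosomes have been removed. The oocyte cytoplasm then has to silence the donor cell's programme and start the embryonic one, at a time when most transcripts in the embryo are still maternal. The donor cell also brings its own cytoplasm and RNA into the oocyte. Genes that are abundant in the donor and low in fertilized embryos offer a way to look for remnants of the donor state.

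The donor fibroblasts were primary cultures from the ear of a bull from a Brahma and Spanish cross, starved of serum before transfer, and 1 cell was fused into each enucleated MII oocyte, which was then activated. The IVF embryos were made from MII oocytes with semen of a Holstein bull and grown on a layer of cumulus cells, which were also prepared for embryo culture in the scNT protocol, and both kinds of embryo were profiled at the same stages. Per the labels, pools of 20 embryos were taken on day 2 at the 2-cell stage, day 3 at the 8-cell stage, day 6 as morulae and day 8 as blastocysts, and the derived cells were grown out of blastocysts. There were 3 scNT morula libraries, numbered 2, 3 and 4, and 4 libraries in each of the other 11 groups, 47 in all, read by RNA sequencing with a low-input kit. The scNT embryos of this series thus carry the nuclear genome of 1 male animal, and the IVF embryos share 1 sire. The labels do not say whether the replicates came from different animals or cultures, so the p-values reflect only how far these libraries spread, which may be technical. In bulk libraries, fewer cells of a type and less RNA per cell cannot be told apart.

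Values are normalized counts as the authors deposited them, not divided by gene length. Levels were therefore compared between genes only as sums, ranks, and medians and ranges over sets of genes, which describe what was measured. The libraries held 4608099 to 16642386 recovered reads. A floor of 3 reads corresponded to between 1.43 and 6.12 normalized counts in the oocyte, embryo and derived-cell libraries, a limit that covers counting error only. The genes are known here by Ensembl identifiers, and 0 of the 20526 matched a gene name in the reference used. The label "fibroblast genes" therefore could not be checked against fibroblast markers, nor could the roles of the 38 genes or markers of other cell types be given. The genes are numbered 1 to 38 from the highest to the lowest fibroblast median, and 4 identifiers are printed.

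A pair of libraries stood apart on these genes. Summed over the 38 members, fibroblast replicate 3 held 6717.9 normalized counts, against 32403.8, 36752.1 and 36492.5 in fibroblast replicates 1, 2 and 4. It was the lowest of the 4 fibroblast libraries for 35 of the 38 members, and 30 members were under 200 in it. The typical member stood there at 16.2% of the median of the other 3 libraries, while the 5972 genes with a fibroblast median of at least 200 stood at 90.1%. Among IVF 2-cell embryos, replicate 3 held a summed 728.4 normalized counts, against 145.4 to 208.4 in the other 3 libraries. Without fibroblast replicate 3 the rule gave 40 genes, and without IVF 2-cell replicate 3 it gave 39, all 38 members among them in both cases.

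The fibroblast medians ran from 4565 for member 1 down to 202.4 for member 38, with a median of 433.9. In all, 10 members had a fibroblast median over 1000, 7 lay between 500 and 1000, and 21 lay under 500. Just inside the fibroblast limit were genes at 222.65, 220.4 and 202.4, and just outside it, with all other limits met, were genes at 191, 187.4 and 177.2. At the upper limit of the low groups, the nearest members reached a highest median of 19.55, 19.6 and 19.6, and the nearest genes left out reached 20.4, 20.45 and 20.5. Of the 5972 genes with a fibroblast median of at least 200, 471 were low in oocytes, and 100 of these were low in all 4 IVF embryo stages as well. The limit on IVF derived cells then removed 62 of the 100, of which 16 had a median over 200 in those cells.

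**Figure D1:**
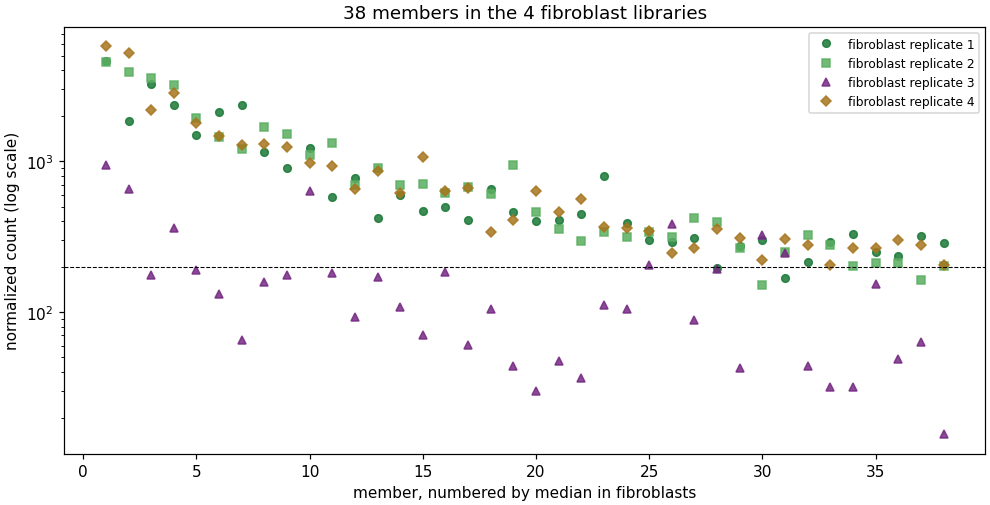
Normalized count (log scale) of each of the 38 members, numbered by fibroblast median, with 1 symbol per fibroblast library and a dashed line at 200. Replicate 3 lies below the other 3 libraries for most members, at a median of 16.2% of their median, while members 10, 25, 26, 28, 30, 31 and 35 lie at 54.0% to 146% of it.

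The most abundant members were far above the limit in fibroblast replicates 1, 2 and 4. Member 1 had 4590.6, 4540.3, 942.2 and 5795.8 normalized counts in the 4 fibroblast libraries. Member 2 had 1846.3, 3908.9, 657.0 and 5213.0, and member 3 had 3256.7, 3543.8, 175.2 and 2192.9. In all 3 genes replicate 3 was the lowest, and of the 3 only member 3 was under 200 there. At the low end, member 38 had 286.9, 201.0, 15.5 and 203.8, so that replicates 2 and 4 were barely over the limit of 200 and replicate 3 was under 20. When every single library had to meet the limits, instead of the medians, only member 4 was left, with 2368.8, 3191.9, 363.5 and 2820.1 in fibroblasts and at most 4.1 in any oocyte, IVF embryo or IVF derived-cell library.

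The 7 members that replicate 3 held at 54.0% to 146% of the other fibroblast libraries were members 10, 25, 26, 28, 30, 31 and 35, and the other 31 members stood at 5.07% to 30.4%. These 7 genes also held 56.4% of the members' summed counts in IVF 2-cell replicate 3. Their median there was 42.7 normalized counts, with a range of 6.9 to 127.0, against a median of 3.5 and a range of 0 to 76.2 for the other 31. Across the 38 members, Spearman's rho between the percentage held in fibroblast replicate 3 and the level in IVF 2-cell replicate 3 was 0.579. That is a description of 2 libraries across genes, which are not independent. Member 25, the highest in that 2-cell library, had 8.1, 13.4, 127.0 and 18.2 in the 4 IVF 2-cell libraries and 300.0, 338.7, 204.6 and 344.4 in fibroblasts. A shared source of the 2 libraries' deviations was not tested.

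Low did not mean absent. Over the 24 oocyte, IVF embryo and IVF derived-cell libraries, 24.5% of the 912 values of the members were 0 and 6.25% were over 20. In 19 members the median was above 0 in all 6 low groups, and 7 members had a median of 0 in at least 3 of them. In these libraries 12 members never exceeded 20 and 4 never exceeded 5. Of the 57 values over 20, 10 were in IVF 2-cell replicate 3, 10 in IVF derived-cell replicate 3 and 7 in IVF 8-cell replicate 4. The highest low-group median fell in IVF derived cells for 14 members, in IVF 8-cell embryos for 8, in oocytes for 5, in IVF morulae and in IVF blastocysts for 4 each, and in IVF 2-cell embryos for 3.

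**Figure D2:**
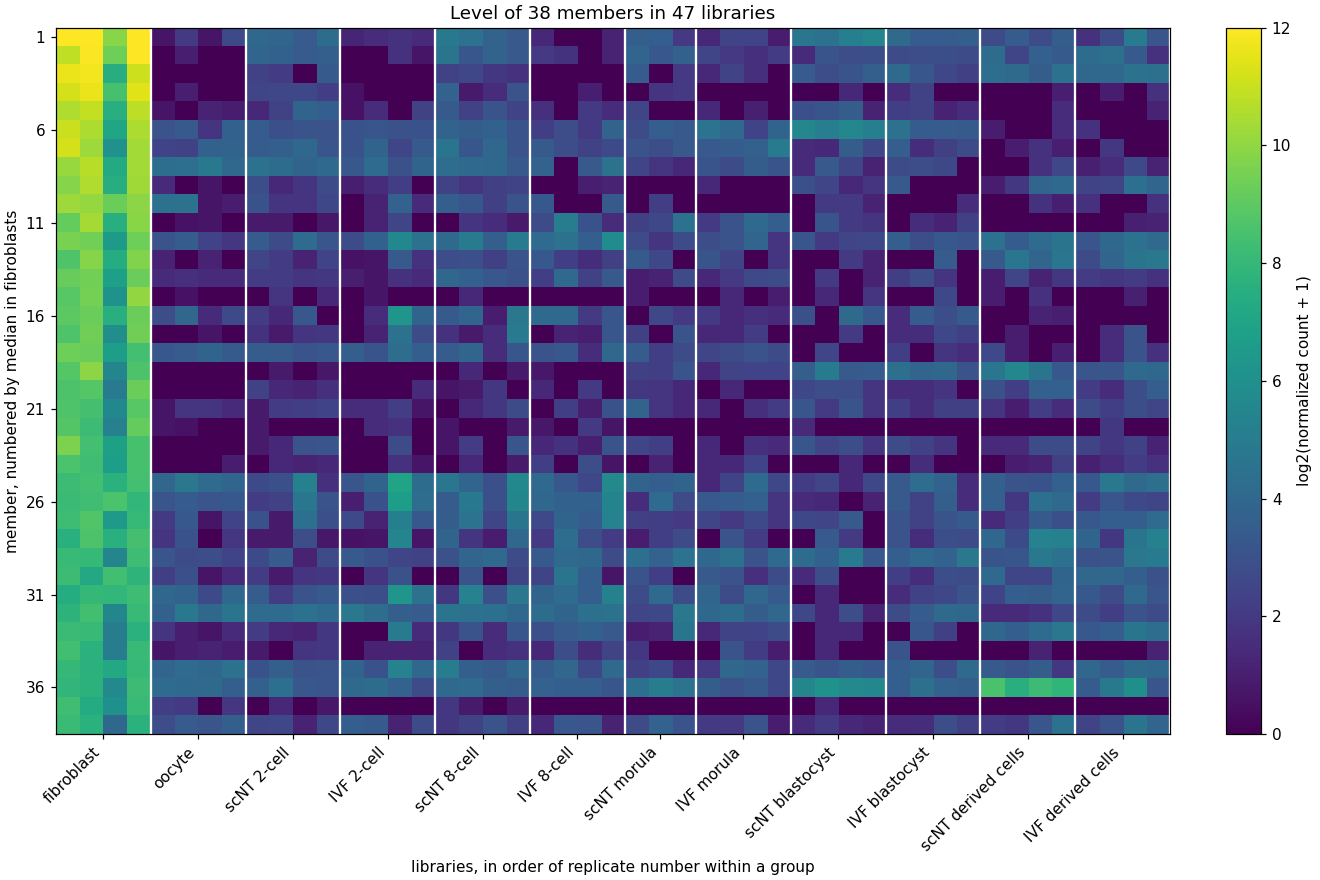
Level of the 38 members (rows, numbered by fibroblast median) in the 47 libraries (columns, in order of replicate number within each group), as log2(normalized count + 1). The third fibroblast column is darker than the other 3, and member 36 is bright in all 4 scNT derived-cell libraries, at 188.3 to 369.4 normalized counts.

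In scNT embryos and scNT derived cells most members were low as well. In derived cells the medians of members 19, 28 and 36 were over 20, and that of member 36 was by far the highest. The members' summed level had a median of 219.9 normalized counts in scNT 2-cell embryos, 365 in 8-cell embryos, 208 in morulae, 262 in blastocysts and 575 in derived cells, and of 34448 in fibroblasts. The typical member stood at 0.554%, 0.879%, 0.639%, 0.351% and 0.620% of its fibroblast median at these 5 stages. In the IVF libraries, whose values the rule held down, the summed medians were 188, 259.8, 186.5, 212 and 286 in the same order. Over the 19 scNT libraries 61 of 722 values exceeded 20, which is 8.45%, and 15 members never did. Apart from member 36, the highest value in any scNT library was 48.3.

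**Figure D3:**
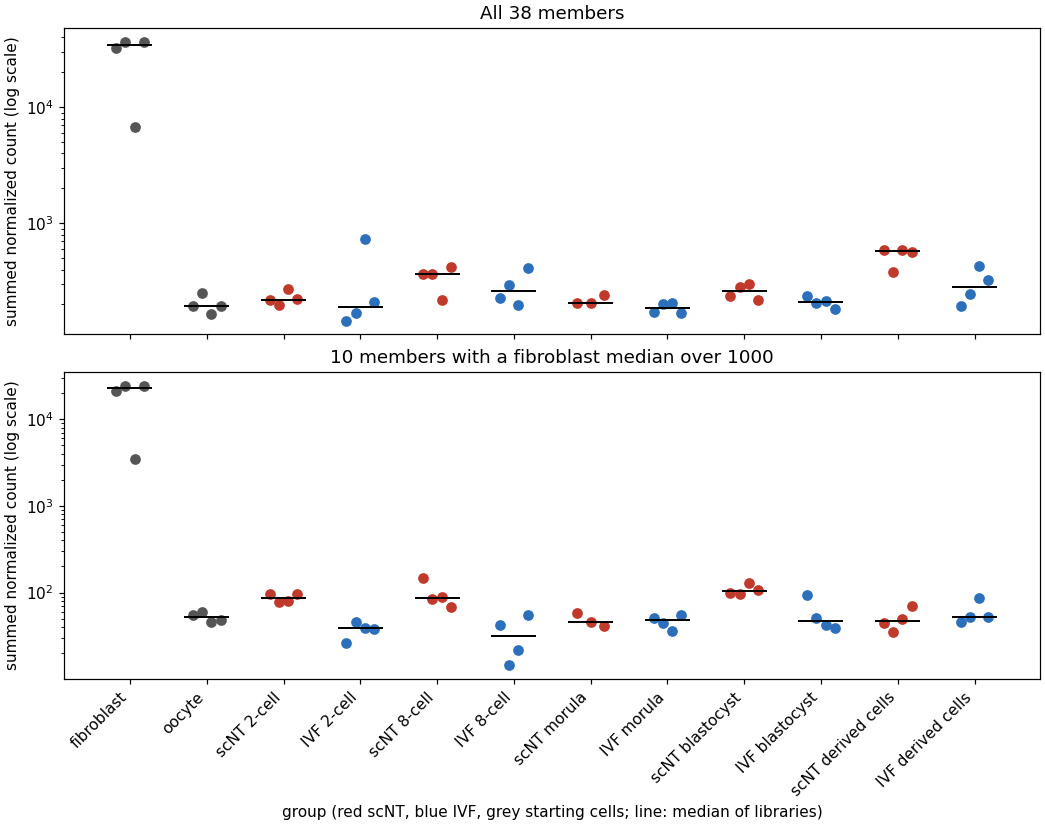
Summed normalized count (log scale) of all 38 members (top) and of the 10 members with a fibroblast median over 1000 (bottom), 1 point per library and a line at the group median. In the bottom panel all 4 scNT libraries lie above all 4 IVF libraries at the 2-cell stage (78.7 to 96.0 against 26.4 to 45.9) and at the 8-cell stage (68.6 to 148.5 against 14.6 to 55.6). The rule held the IVF medians of these genes down.

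Applied to the scNT groups, the same limit of 20 was exceeded by the median of no member in 2-cell embryos. It was exceeded by members 12 and 32 in 8-cell embryos, by member 36 in morulae, by members 1, 6 and 36 in blastocysts and by members 19, 28 and 36 in derived cells. In all, 7 of the 38 members passed it in at least 1 scNT group and 31 passed it in none. As shares of the 38, these were 0%, 5.26%, 2.63%, 7.89% and 7.89% from the 2-cell stage to derived cells. Among all genes with an IVF median of at most 20 at the same stage, 1.82%, 3.27%, 4.39%, 2.77% and 2.05% had an scNT median over 20. Among the genes low in IVF at that stage that also had a fibroblast median of at least 200, the members included, the shares were 6.12%, 15.1%, 18.6%, 5.39% and 6.92%. The members' shares were below these in 2-cell embryos, 8-cell embryos and morulae and somewhat above them in blastocysts and derived cells, differences that were not tested. The members' shares come from at most 3 genes a stage. Without scNT 8-cell replicate 3, which held 0 members over 20, the count of members over the limit was 11 instead of 7.

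The 62 genes that the limit on IVF derived cells had left out give a comparison, since they met every other limit. Of those 62, 9, 11, 5 and 3 had a median over 20 in scNT 2-cell embryos, 8-cell embryos, morulae and blastocysts, which is 14.5%, 17.7%, 8.06% and 4.84%. In scNT derived cells 59 of the 62 did, so that genes which IVF derived cells expressed were nearly all found in scNT derived cells too. The difference between the lists was not tested.

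At the 2-cell and 8-cell stages the members most abundant in fibroblasts had higher medians in scNT than in IVF embryos. Over the 200 genes highest in fibroblasts among those low in oocytes, medians were not more often higher in scNT. The genes over 1000 among those 200 were not examined apart. Among the 10 members with a fibroblast median over 1000, the scNT median was above the IVF median in 10 of 10 at the 2-cell stage and in 10 of 10 at the 8-cell stage. Among the other 28 members it was above in 15 and below in 13 at the 2-cell stage, and above in 15 and below in 11 at the 8-cell stage. Over all 20526 genes it was above in 8971 and below in 8693 at the 2-cell stage, and above in 10371 and below in 8712 at the 8-cell stage. These counts are descriptions, because the rule held the IVF medians down and the cut at 1000 was not planned in advance.

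Summed over the 10, scNT 2-cell embryos held 95.7, 78.7, 79.3 and 96.0 normalized counts, against 26.4, 45.9, 39.2 and 38.2 in IVF 2-cell embryos. Oocytes, the shared starting cell, held 45.4 to 59.7. At the 8-cell stage scNT embryos held 148.5, 85.3, 88.6 and 68.6, against 41.7, 14.6, 21.5 and 55.6 in IVF embryos. At both stages the 2 groups did not overlap. In morulae they did, with 58.2, 46.0 and 40.8 in scNT libraries and 36.4 to 54.9 in IVF libraries. In blastocysts scNT libraries held 95.9 to 127.2, against 39.5 to 93.0 in IVF libraries, again without overlap, and members 1 and 6 alone held 58.2% to 72.9% of the scNT sums. In derived cells the groups overlapped again, at 34.9 to 69.7 in scNT libraries and 46.3 to 86.7 in IVF libraries. The sums at the early stages were small beside the 3499 to 24076 that these 10 genes reached in the fibroblast libraries. The IVF sums come from values that the rule held down, so all of these comparisons are descriptions.

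The same comparison was made with the choice turned round, by applying the limit of 20 to oocytes and the 5 scNT groups in place of the IVF groups. That gave 37 genes, of which 31 were shared, 81.6% of the 38 and 83.8% of the 37. In that list, held down in scNT instead of IVF, 8 genes had a fibroblast median over 1000. Their median was higher in scNT embryos in 8 of 8 at the 2-cell stage and in 8 of 8 at the 8-cell stage. For the other 29 genes of that list, the scNT median was above the IVF median in 13 and below in 16 at the 2-cell stage, and above in 10 and below in 17 at the 8-cell stage. The 8 are all among the members over 1000, every one of which was already higher in scNT at both stages. Their 8 of 8 was therefore fixed by those values and is not a second measurement. A list with no limit on any embryo or derived-cell group, the 200 genes highest in fibroblasts among those low in oocytes, held 18 of the 38 members. In that list the scNT median was above the IVF median in 86 genes and below in 113 at the 2-cell stage, with a median log2 difference of -0.35, and above in 98 of the 200 and equal in 1 at the 8-cell stage, with a median log2 difference of -0.03. Without overlap, scNT libraries were above IVF libraries in 14 of the 200 and below in 0 at the 2-cell stage, and above in 11 and below in 3 at the 8-cell stage. The 14 include members 1, 2, 4 and 14, and the 11 include members 1, 2, 3, 5 and 9. For member 14 the gap rests on values under the floor of 3 reads. Over all 20526 genes, 1.65% and 2.35% were above without overlap, and the shares below are not given.

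Member 1 had 15.0, 13.9, 9.9 and 18.2 normalized counts in scNT 2-cell embryos, while IVF 2-cell embryos had 1.4, 1.9, 2.3 and 1.8 and oocytes had 0.6 to 5.3. In 8-cell embryos it had 27.8, 21.3, 13.2 and 9.1 with scNT, against 1.5, 0, 0 and 1.3 with IVF. Every scNT library was above every IVF library at both stages. Member 2 had 14.2, 12.3, 9.9 and 11.6 in the 4 scNT libraries of the 2-cell stage, against 0, 0, 2.3 and 0.6 in the IVF libraries. In 8-cell embryos it had 23.2, 8.2, 13.2 and 9.1 with scNT and 3.0, 2.4, 0 and 1.3 with IVF. The groups again did not overlap at either stage. Member 3, which was 0 in all oocyte, IVF 2-cell and IVF 8-cell libraries, had 4.0, 3.3, 0 and 9.5 in scNT 2-cell embryos and 4.0, 4.9, 2.8 and 2.3 in scNT 8-cell embryos. Member 4 had 4.7, 4.9, 5.0 and 3.6 in scNT 2-cell embryos, while IVF 2-cell embryos had 0.5, 0, 0 and 0.

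Members 1, 2, 4 and 14 were higher without overlap in scNT 2-cell embryos, and 1.65% of all 20526 genes were. In scNT 8-cell embryos members 1, 2, 3, 5 and 9 were, against 2.35% of all genes. For member 14 the lowest scNT value at the 2-cell stage was 2.5, from replicate 3, where the floor of 3 reads was 3.72. Its highest IVF value was 2.3, also from replicate 3, with a floor of 3.46. Both values lie under the floor, so the gap for member 14 cannot be told from counting error. None of these 7 genes entered the test at these stages, which required 4 or more libraries of the pair to reach 10 and was run with limma on log2(normalized count + 1). At the 2-cell stage 8 members were tested and 0 were called, with 0 at an unadjusted p under 0.05 and 0 by edgeR and by DESeq2 on recovered reads, while 0.0328% of 12195 genes were called. At the 8-cell stage 12 were tested and again 0 were called, with 0 at an unadjusted p under 0.05 and 0 by either other tool, and 0% of 13000 genes were called by limma, where 1642 had an unadjusted p under 0.05, 0 were called by edgeR and 378 by DESeq2. With no filter on low values, member 1 had a log2 difference of 2.40 ± 0.40 (SE, limma adjusted p = 0.163) at the 2-cell stage and of 3.49 ± 0.56 (adjusted p = 0.0729) at the 8-cell stage. Member 2 had 3.09 ± 0.50 (adjusted p = 0.149) and 2.50 ± 0.58 (adjusted p = 0.351) in the same fits, which did not pair libraries by replicate number. With the IVF library of the highest summed level left out as well, an alternative added after the data were seen, member 2 was called at the 2-cell stage (without IVF replicate 3) and members 1 and 3 at the 8-cell stage (without IVF replicate 4). In 1 fit over all 12 groups 1 member was called at the 2-cell stage and 5 at the 8-cell stage. Members passed the filter of that fit through the fibroblast libraries, where the rule required them to be high. The rule also held the IVF values down, so these counts are descriptions. The share of all genes called in that fit is not given here.

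**Figure D4:**
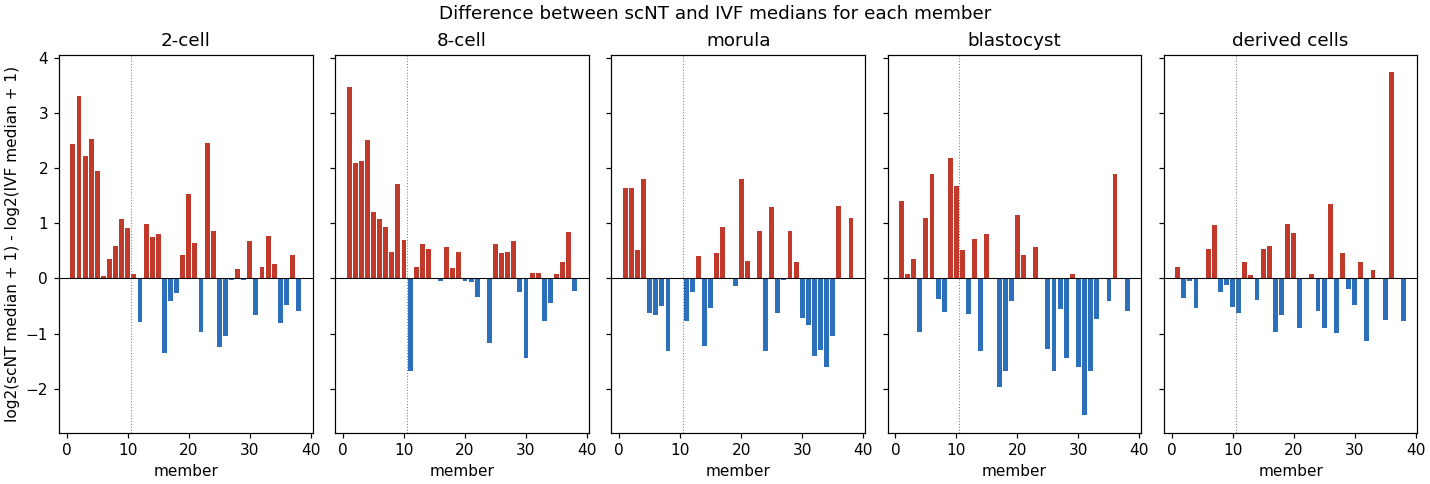
Difference between the scNT and IVF medians of each member on the log2(median + 1) scale, at 5 stages, with members ordered by fibroblast median and a dotted line after member 10. The first 10 members are all above 0 at the 2-cell and 8-cell stages, and member 36 has the tallest bar in derived cells. The rule held the IVF medians down at every stage.

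Within the scNT embryos, which the rule did not use, few members could be tested at each step, and the counts are given beside those over all genes. Members that did not reach 10 in enough libraries were not tested, so the counts speak of the more abundant ones alone. Every called member but member 36 passed this filter only through the stage at which it was higher, so the counts and directions of called members are descriptions and support nothing on the list. From the 2-cell to the 8-cell stage 12 members were tested and 0 were called, with 1 at an unadjusted p under 0.05 and 0 by edgeR and by DESeq2, while 5.68% of the 12425 genes were called. The smallest adjusted p among the members was 0.221.

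From the 8-cell stage to the morula 14 members were tested, of which 4 fell and 0 rose, while 68.9% of the 13702 genes were called, 31.2% higher and 37.7% lower. Those that fell were members 8, 12, 27 and 35. With no filter 8 fell and 2 rose, a description, since the share of all genes called in that fit is not given. The 2 were members 11 and 19, named after their values were seen. Member 8 (ENSBTAG00000014665) had 4.7, 2.5 and 1.5 in scNT morulae, against 18.7, 16.4, 15.1 and 9.1 in scNT 8-cell embryos. The log2 difference was -2.06 ± 0.49 (SE, limma adjusted p = 0.00483). Member 12 (ENSBTAG00000019754) had 5.6, 2.5 and 6.0 in scNT morulae, against 17.0, 28.7, 11.3 and 30.2 in scNT 8-cell embryos, a log2 difference of -1.97 ± 0.51 (adjusted p = 0.00754). The 2 stages did not overlap for either gene, and both were at levels of this kind in oocytes or IVF 8-cell embryos: member 8 had 15.0 to 27.6 in oocytes, and member 12 had 11.2 to 55.0 in IVF 8-cell embryos.

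Member 35 fell by 1.97 ± 0.57 on the log2 scale (adjusted p = 0.0123) and member 27 by 1.66 ± 0.60 (adjusted p = 0.0334). The call for member 27 was lost without any 1 of the 3 morula libraries, at adjusted p from 0.0723 to 0.0783. Members 27 and 35, and without 8-cell replicates 1 or 2 also member 8, no longer reached the filter when 8-cell replicate 1, 2 or 4 was left out, and the count of called members was then 1, 1 and 2.

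From the morula to the blastocyst 6 members were tested, of which members 1, 6 and 36 rose and member 25 fell, while 47.7% of the 13236 genes were called, 21.6% higher and 26.1% lower. With no filter 4 rose and 4 fell, a description, since the share of all genes called in that fit is not given. Member 6 (ENSBTAG00000008997) had 46.4, 34.1, 46.0 and 35.6 in scNT blastocysts, against 5.6, 11.2 and 9.1 in scNT morulae, and the groups did not overlap. Its log2 difference was 2.14 ± 0.36 (SE, adjusted p = 0.00154), and it was called under all 17 alternatives. Member 1 had 24.9, 21.7, 35.3 and 43.2 in scNT blastocysts, against 11.3, 11.2 and 3.0 in scNT morulae, a log2 difference of 1.89 ± 0.50 (adjusted p = 0.0134). Its call was lost with a replicate block (adjusted p = 0.0665), a fit that also left out scNT blastocyst replicate 1. It was kept under the other 16 alternatives. Member 36 rose by 1.02 ± 0.31 on the log2 scale (adjusted p = 0.0217), but the difference was 0.63 (adjusted p = 0.109) with equal library totals, a scaling that moved the median of all genes by -0.41. Leaving out scNT morula replicate 2 or scNT blastocyst replicates 2 or 3 also ended that call, at adjusted p = 0.0780, 0.0513 and 0.0501, and the call was kept under 11 of 17 alternatives. Member 25 fell by 1.64 ± 0.52 (adjusted p = 0.0283), a call that was kept under 8 of its 16 alternatives.

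From scNT blastocysts to scNT derived cells 8 members were tested, of which members 12, 33 and 36 rose and members 1 and 6 fell, while 67.0% of the 12786 genes were called, 32.9% higher and 34.1% lower. With no filter 9 rose and 5 fell, a description, since the share of all genes called in that fit is not given. Member 6 had 0.9, 0, 0 and 1.9 in scNT derived cells, against 46.4, 34.1, 46.0 and 35.6 in scNT blastocysts. Its log2 difference was -4.75 ± 0.44 (SE, adjusted p = 2.63e-06), the gene having thus been over the limit in scNT blastocysts alone among the scNT groups. Member 1 had 6.0, 10.1, 5.9 and 10.5 in scNT derived cells, a log2 difference of -1.81 ± 0.36 (adjusted p = 0.000841) from scNT blastocysts. Members 12 and 33 rose by 1.63 ± 0.41 (adjusted p = 0.00411) and by 3.49 ± 0.49 (adjusted p = 6.76e-05), to 10.1 to 23.8 and 11.0 to 25.8 in scNT derived cells. IVF derived cells held 7.9 to 21.1 of member 12 and 9.0 to 24.3 of member 33. All 5 of these calls were kept under each alternative in which the gene was tested.

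**Figure D5:**
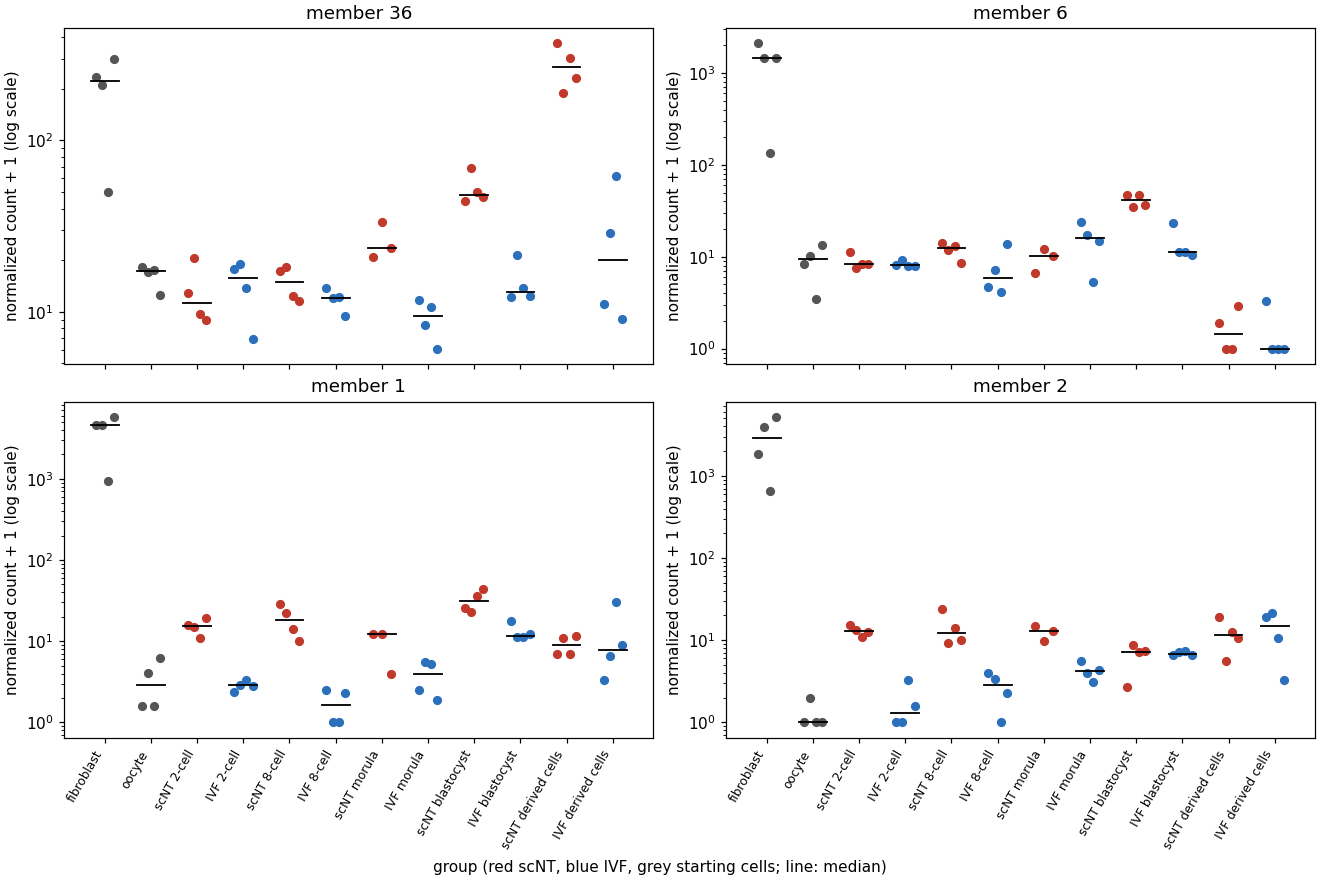
Normalized count + 1 (log scale) of members 36, 6, 1 and 2 in the 12 groups, 1 point per library and a line at the group median. Member 36 reaches 188.3 to 369.4 normalized counts in scNT derived cells, member 6 peaks at 34.1 to 46.4 in scNT blastocysts, and members 1 and 2 lie higher in every scNT library than in every IVF library at the 2-cell and 8-cell stages.

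Member 36 (ENSBTAG00000047764) was the only member that reached its fibroblast level again in any scNT group. It had 369.4, 188.3, 301.9 and 229.8 normalized counts in scNT derived cells, a median of 119% of that in fibroblasts, where it had 234.6, 210.7, 48.9 and 298.5. IVF derived cells had 10.1, 27.8, 61.3 and 8.1, so the scNT and IVF libraries did not overlap, although 1 IVF library stood well above the rest. The rule had held the IVF median to at most 20, and it was 18.95, so this comparison and those of member 36 in morulae and blastocysts were made with an IVF group chosen to be low, and their p-values are descriptions. The list chosen with the limit on scNT groups does not hold member 36. The log2 difference was 3.68 ± 0.56 (SE, limma adjusted p = 0.0178), and over 18 alternatives it lay between 3.29 and 4.21, with adjusted p from 4.42e-09 to 0.0494. It was the 1 member called of 14 tested, while 1.34% of the 12390 genes were called between scNT and IVF derived cells, 0.638% higher in scNT. From scNT blastocysts to scNT derived cells it rose by 2.36 ± 0.24 on the log2 scale (adjusted p = 4.47e-06).

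Member 36 accounted for 41.0% to 62.8% of the members' summed counts in scNT derived cells. Without it the summed level of the other 37 had a median of 254 in scNT derived cells, against 268 in IVF derived cells, and the ranges overlapped, at 195.5 to 331.3 and 184.7 to 371.1. The higher summed level of the 38 in scNT derived cells thus came from 1 gene.

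In blastocysts and morulae the scNT and IVF libraries were also apart for member 36. In blastocysts it had 43.1, 68.1, 49.0 and 45.7 with scNT, against 11.2, 20.4, 12.7 and 11.3 with IVF, a log2 difference of 1.83 ± 0.30 (adjusted p = 0.00508) that was called under all 18 alternatives. In morulae it had 19.8, 32.4 and 22.7 with scNT, against 10.8, 7.4, 9.6 and 5.1 with IVF, a log2 difference of 1.51 ± 0.42 (adjusted p = 0.0387). The groups did not overlap, but leaving out any 1 of the 7 libraries ended the morula call, at adjusted p from 0.0518 to 0.108, and it was kept under 6 of 16 alternatives. At the 8-cell stage it had 16.4, 17.2, 11.3 and 10.6 with scNT, against 12.7, 11.0, 11.2 and 8.4 with IVF, and at the 2-cell stage 11.9, 19.7, 8.7 and 8.0 with scNT, against 16.7, 17.9, 12.7 and 5.9 with IVF. At both of those stages the groups overlapped, around the 11.5 to 17.2 of oocytes. In morulae it was the 1 member called of 9 tested, while 18.7% of the 13590 genes were called, 7.37% higher in scNT.

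In blastocysts 3 of 6 members tested were higher in scNT than in IVF libraries and 0 were lower, while 5.95% of the 12607 genes were called, 2.53% higher in scNT. They were members 1, 6 and 36, which are also the 3 that rose from the scNT morula to the scNT blastocyst, and both comparisons use the same scNT blastocyst libraries. Member 6 had 46.4, 34.1, 46.0 and 35.6 in scNT blastocysts, against 22.3, 10.2, 10.2 and 9.4 in IVF blastocysts, a log2 difference of 1.64 ± 0.34 (SE, adjusted p = 0.0161). That call was lost without scNT blastocyst replicate 1 or 3, or without IVF blastocyst replicate 2, at adjusted p = 0.0573, 0.0527 and 0.0538, and in 1 fit over all 12 groups, at adjusted p = 0.122, where member 36 alone was called. Member 1 had 24.9, 21.7, 35.3 and 43.2 in scNT blastocysts, against 16.7, 10.2, 10.2 and 11.3 in IVF blastocysts, a log2 difference of 1.28 ± 0.35 (adjusted p = 0.0497). It lay at the threshold, and it was kept under 6 of 18 alternatives, with adjusted p from 0.0399 to 0.268. Leaving out scNT replicates 1, 3 or 4, or IVF replicates 2, 3 or 4, ended it. The IVF values of these comparisons were used by the rule, so the counts are read as a description beside the share over all genes.

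Members 19 and 28 passed the limit in scNT derived cells at lower levels. Member 19 had 24.9, 45.9, 23.5 and 8.6 in scNT derived cells, against 7.9, 8.4, 15.9 and 15.1 in IVF derived cells. Member 28 had 15.5, 5.5, 38.8 and 37.2 in scNT derived cells, against 13.5, 2.8, 24.3 and 38.2 in IVF derived cells. For both genes the scNT and IVF libraries overlapped. Member 32, over the limit in scNT 8-cell embryos with 23.8, 21.3, 19.8 and 15.1, overlapped with IVF 8-cell embryos, at 17.9, 13.5, 20.3 and 21.3, and with oocytes, at 12.3 to 26.8. At the other end, member 37 was 0 in all libraries of scNT morulae and of scNT derived cells and reached at most 2.8 in any scNT library, against 63.6 to 319.1 in fibroblasts. Member 22 reached at most 1.7 in any scNT library, against 36.7 to 566.3 in fibroblasts.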

How the data were processed

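Libraries of RNA over 200 nt were made with a low-input kit and repeated PCR, per the labels' protocols. The authors deposited a signal table, with a single normalized count for each gene in each library. The submitters' processing notes name STAR, DESeq2, FastQC, MultiQC and build UMD3.1. Roles, versions, annotation and read counter: not given in the sources used here. Dividing a library's values by its smallest step gave whole reads for 96.6% to 100% of values under 100 reads (tolerance 0.1). Totals were 4608099 to 16642386 reads, 5663196 to 15274055 in scNT libraries, 10082317 to 14669086 in fibroblasts and 8709911 to 14281462 in oocytes.

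Groups came from the sample titles. Comparisons used limma 3.58.1 (trend, robust) in R 4.3.3 on log2(value + 1), which understates changes of low genes. Genes needed a value of at least 10 in as many libraries as the smaller group had. Tests were two-sided, p-values were Benjamini-Hochberg adjusted over all genes tested, and 0.05 was the threshold. The fit was tested on simulated data with 200 changed genes. A log2 change of 1 was recovered in 5% (scNT 8-cell to morula) to 67% (scNT against IVF blastocysts) of them, and in 10% for scNT against IVF 8-cell embryos. A log2 change of 2 was recovered in 68% to 99%. The changed genes were more abundant than nearly all members, so recovery at the members' levels was not tested. The alternatives were pseudocounts of 0.5 and 5, no filter or a filter at 20, equal library totals, median-of-ratios scaling, a replicate block, 1 fit over 12 groups, each library left out, and edgeR 4.0.16 and DESeq2 1.42.0 on recovered reads. Same-numbered scNT and IVF libraries deviated together at the 2-cell stage (r 0.118 to 0.683 over 4 pairs) and at the 8-cell stage (r 0.231 to 0.563), where the numbers may pair the samples. At the 2-cell stage scNT replicate 2 had r 0.431 with its own number and up to 0.548 with another. For replicate 4 these were 0.118 and 0.250. The main and no-filter fits did not use this pairing. In the other comparisons at least 1 pair was at or under 0.1.

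The members, lists and tests were chosen with earlier results of these data known. Named were the 20 members highest in fibroblasts, called members (at most 5 a direction) and the 5 highest over scNT libraries, with further members named after their values were seen. The lists of marker genes and gene families that had been drawn up need gene names and could not be used.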

Additional observations from a re-analysis of the deposited data

Results flagged for a closer look

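Among 77 groups of 4 libraries examined for the members named and for their summed level, 10 had a single library far from the other 3, judged by its gap to the nearest library as a share of the group's range. For normally spread values chance gives this in about 1 in 20 groups. That rate does not hold for counts near 0, so the 10 cannot be weighed against it. The summed level was 6717.9 in fibroblast replicate 3 (nearest 32403.8), 728.4 in IVF 2-cell replicate 3 (nearest 208.4) and 383.8 in scNT derived-cell replicate 2 (nearest 561.1). Member 12 stood at 92.1 in fibroblast replicate 3, with the nearest library at 658.8. In IVF blastocysts replicate 1 was high for member 1, at 16.7, and for member 6, at 22.3, replicate 2 was high for member 36, at 20.4, and replicate 4 had 0 for member 8, with the nearest at 5.1. Member 2 had 1.0 in oocyte replicate 2 and member 6 had 2.3 in IVF derived-cell replicate 1, where the other 3 libraries of each group had 0. Both values lie under the floor of 3 reads in their library, 1.55 and 3.38.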

How the results depend on the processing

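The choice of members depended on its limits. The rule gave 84 genes with a fibroblast limit of 100, 20 with 400, 14 with a limit of 10 elsewhere, 88 with 40, 200 with fibroblasts and oocytes alone (the most the rule keeps), and 1 when every library had to meet the limits. Leaving out 1 library gave 35 to 45. The count of members over 20 in scNT groups was 21 at a limit of 10 and 2 at a limit of 40, and 6 to 11 with 1 library left out.

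Among the scNT steps, the 8-cell to morula count (4) was 10 with no filter, 0 with a filter at 20, where 1 member was tested, 9 in 1 fit over all groups, and 1 to 5 with 1 library left out. The morula to blastocyst count (4) was 8 with no filter, 8 over all groups and 2 to 4 with 1 library left out (2 without scNT morula replicate 2 or scNT blastocyst replicate 3). The blastocyst to derived-cell count (5) was 14 with no filter, 3 with a filter at 20, 12 over all groups and 5 to 10 with 1 library left out (9 or 10 without any 1 blastocyst library, since more members then passed the filter). The 2-cell to 8-cell count was 0 throughout, leave-outs included (0 to 0). In the fit over all groups, members passed the filter through the fibroblast libraries, where the rule required them to be high. Its counts and those of the no-filter fits, here and in the next paragraph, are descriptions. The shares of all genes called in these fits are not given.

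Between scNT and IVF, the 2-cell count (0) was 1 over all groups and 1 with no filter and without IVF replicate 3, and 0 to 0 with 1 library left out. The 8-cell count (0) was 5 over all groups, 2 with no filter and without IVF replicate 4, and 0 to 1 with 1 library left out (1 without IVF replicate 4). The morula count (1) was 0 with no filter, with a filter at 20, with equal library totals, and with any 1 library left out (0 to 0). The blastocyst count (3) was 1 over all groups and 1 to 3 with 1 library left out. The derived-cell count was 1 throughout (1 to 1). With the replicate block the counts were 1 for the 8-cell to morula step, 1 for the morula to blastocyst step and 0 for scNT against IVF morulae, where the numbers were not found to pair the samples. There is no scNT morula replicate 1, so these fits also left out replicate 1 of the other group. Their counts therefore mix the block with the loss of a library. The block left the 2-cell and 8-cell counts, where the numbers may pair the samples, at 0, and moved no other count by over 1.5 times. The filter kept members 1 and 2 out of the block fits at the 2-cell and 8-cell stages. No difference called in the main fits changed sign under any alternative in which the gene was tested. Differences not called there were not followed in this way. Equal totals moved the median of all genes by -0.41 to 0.28. The cause of these changes was not tested except where stated, and levels under the floor of 3 reads limit what can be read.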
